A study of Mus musculus with 53 samples.

Results

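The genes described here encode the factors with which cytosolic ribosomes start, extend and end a protein chain: the initiation factors (Eif1 to Eif6), the elongation factors (Eef1 and Eef2) and the release factors (Etf1 and Gspt). They were taken by symbol from the deposited expression table. 74 rows had a symbol of this form, 4 of them were named as pseudogenes and 3 others (Eif1ax, Eif2s3x and Eif2s3y) were left out by name, which left 67 of the 34306 genes of the table. By role they were 8 genes of cap binding and its inhibitors, 8 of the eIF4A, eIF4B, eIF4G and eIF4H group, 13 of the eIF3 complex, 9 of start codon choice and subunit joining, 7 of eIF2 and its exchange factor eIF2B, 4 eIF2 kinases, 10 of elongation and 3 of termination. The remaining 5 are the Argonaute genes, which carry the old symbols Eif2c1 to Eif2c5 and act in RNA silencing, not in initiation. 58 of the 67 genes reached 1 RPKM (reads per kilobase of transcript, scaled to library depth) in at least 2 libraries and entered the tests, and 9 did not.

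In initiation, eIF4E binds the cap of the messenger RNA, eIF4G bridges it to the ribosome through eIF3, and the helicase eIF4A unwinds the leader. The 4E-BP proteins compete with eIF4G for eIF4E and let go of it when mTORC1 phosphorylates them. eIF2 brings the initiator tRNA, eIF2B recharges eIF2, and the eIF2 kinases block that step under stress. eEF1A then delivers tRNAs and eEF2 moves the ribosome along, while the kinase eEF2K inhibits eEF2. Adult heart muscle, like brain, uses the isoform eEF1A2 in place of much of the eEF1A1 found in most tissues, and many mRNAs of the translation machinery begin with a 5′ terminal oligopyrimidine tract (TOP), through which mTORC1 controls them together.

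RNA came from hearts of adult mice of a mixed 129/C57BL background, as the first deposit gives it, whose ribosomes carry an affinity tag. TRAP RNA is the RNA pulled down with tagged ribosomes, and input is the total cytoplasmic RNA. Tie2 hearts carry the tag where a Tie2-Cre has been active, which the submitters describe as endothelial cells, and CAG hearts carry it in all lineages. Tie2-Cre is also known to be active in blood-forming cells. Tie2 hearts without surgery gave 1 TRAP and 1 input library, and CAG hearts without surgery likewise. CAG hearts of male mice whose ascending aorta had been tied against a needle (band), which loads the left ventricle with pressure, gave 2 TRAP and 2 input libraries, and CAG hearts after the same operation without the ligature (sham) also gave 2 of each. Every heart carried the tag, the sex of mice without surgery was not given, and RNA was pooled before the libraries were made. The labels do not tie the libraries of a group to different mice, so the p-values given here reflect library-to-library spread alone, and that spread may be technical.

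Totals of the 12 libraries, recovered from the values, ran from 26568988 to 94878619 reads. The labelled tissue was checked against its markers: the 9 cardiomyocyte markers summed to between 52520 and 71410 RPKM in the 11 libraries other than Tie2 TRAP. In Tie2 TRAP they summed to 3396 RPKM, and the 9 endothelial markers to 12210 RPKM, against 71410 and 1327 RPKM in Tie2 input. The 6 macrophage markers summed to 1834 RPKM in Tie2 TRAP and 203 RPKM in Tie2 input, and the 5 erythroid markers to 611 and 2565 RPKM. No marker on these lists was at 0 in Tie2 TRAP. The 2 band TRAP libraries were the least alike of any pair: the 58 tested genes differed between them by a median of 0.25 on the log2 scale, against 0.10 in sham TRAP, 0.10 in band input and 0.04 in sham input. Their endothelial markers summed to 1688 and 849 RPKM, against 970 and 970 RPKM in sham TRAP.

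The 67 genes were at widely different levels. Of the levels per length, 11 of the 67 genes averaged at least 100 RPKM over the 12 libraries, 32 lay between 10 and 100 RPKM, and 24 below 10 RPKM. The highest was Eif1, the factor that proofreads the start codon, at a mean of 681 RPKM, followed by Eef1a2 at 666, Eef1a1 at 508, Eef2 at 477 and Eif5a, which eases the ribosome past stalling peptides, at 439 RPKM. These 5 genes made up 44.6 to 61.9% of the summed RPKM of all 67. The highest library exceeded the lowest by 1.85-fold for Eif1 and 1.35-fold for Eif5a, and by 11-fold for Eef1a2 and 20.3-fold for Eef1a1. 26 of the 58 tested genes had their highest level in Tie2 TRAP, and the share of all genes that did was not counted. The median of all genes lay 0.48 higher on the log2 scale in Tie2 TRAP than in Tie2 input. It lay 0.85 higher than in TRAP of CAG hearts without surgery.

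Subunits of a single complex were not at equal levels. In eIF3, the scaffold that holds the other factors on the small subunit, Eif3h averaged 208 RPKM and Eif3k 169 RPKM, whereas Eif3a averaged 26.9 RPKM and Eif3j 10.6 RPKM. In eIF2, the beta subunit Eif2s2 averaged 64.8 RPKM and the alpha subunit Eif2s1, the target of the eIF2 kinases, 8.16 RPKM. Eif2s2 exceeded Eif2s1 in all 12 libraries, by 4.56-fold to 15.1-fold. Of the 4E-BP genes, Eif4ebp1 averaged 301 RPKM and Eif4ebp2 9.29 RPKM, so that Eif4ebp1 gave 84.6 to 98.9% of their summed RPKM. Among the cap binders, Eif4e, Eif4e2 (the translational repressor 4EHP) and Eif4e3 averaged 14.5, 19.4 and 22.1 RPKM, and their ranges over libraries overlapped.

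**Figure D1:**
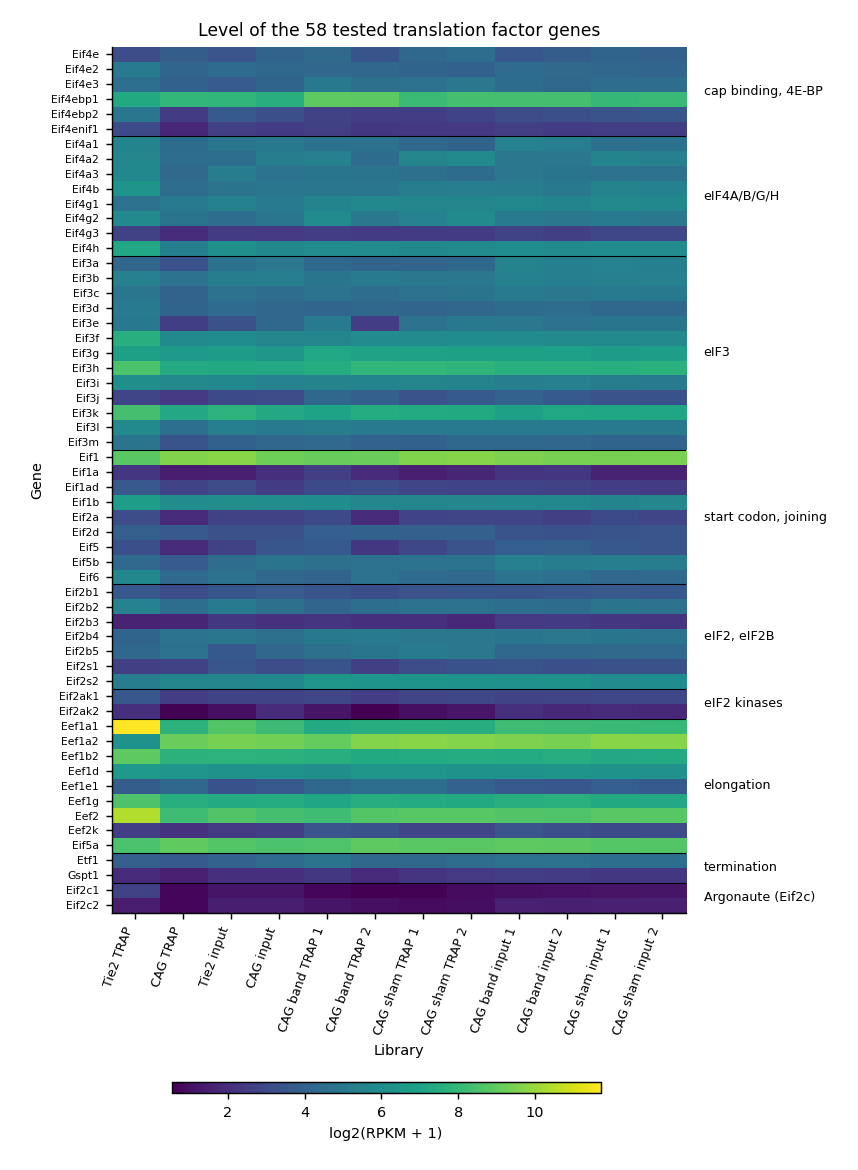
Level of the 58 tested genes in each of the 12 libraries. Columns are libraries, rows are genes grouped by role, and colour is log2(RPKM + 1); in Tie2 TRAP Eef1a1 is at its brightest and Eef1a2 at its darkest, and Eif3e is dark in CAG TRAP without surgery and in 1 of the 2 band TRAP libraries.

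The first question was which of these mRNAs are more or less abundant on ribosomes than in the cytoplasm of a whole heart. After sham surgery 15 of the 58 tested genes were called between TRAP and input (limma, adjusted p under 0.05), 5 higher and 10 lower in TRAP. Of all 11654 genes tested 39.6% were called, 15.1% higher and 24.5% lower, so the 25.9% of translation factor genes lay below that share. After banding 18 were called, 6 higher and 12 lower, or 31.0%, where 42.6% of all genes were called, 16.6% higher and 26.0% lower. The median log2 fold change of the 58 genes was -0.03 after sham surgery and -0.11 after banding, and that of all genes -0.09 and -0.10. Leaving out 1 library left 1 in its group. Sham calls became fewer without any sham library. Band calls became fewer without a band input library and more without a band TRAP library. These shifts were shared by the 58 genes and all genes. The median of the 58 genes then ran from -0.07 to 0.01 after sham surgery and from -0.15 to -0.05 after banding. That of all genes ran from -0.11 to -0.06 and from -0.14 to -0.05. The share of higher calls also moved with the scaling: 3 higher and 10 lower genes were called after sham surgery under quantile normalization and 4 and 14 when scaled without the 100 most abundant genes, and 4 and 17 after banding under the same scaling. With the trend over transcript length removed, the balance turned to 9 higher and 4 lower after sham surgery and to 9 and 8 after banding. Of all genes, quantile normalization called 2053 higher and 1851 lower after sham surgery. Scaling without the 100 most abundant genes called 1434 and 3543 after sham surgery and 1569 and 3722 after banding. With the length trend removed, 1568 and 1705 of all genes were called after sham surgery and 2062 and 2037 after banding. The comparisons share no library, but both come from 1 fit with the same spread for each gene. Calls in both are therefore not independent. 12 genes were called in the same direction in both, which is 80% of the sham calls and 66.7% of the band calls, and none was called in opposite directions. For all genes the same shares were 81.1% and 75.4%.

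In the elongation group Eef1a1 fell in TRAP. It was read at 193 and 178 RPKM in sham TRAP, against 275 and 260 RPKM in sham input. After banding it had 164 and 178 RPKM in band TRAP, against 302 and 296 RPKM in band input. Every TRAP library of these hearts lay below every input library. The log2 fold change was -0.53 after sham surgery (SE 0.08, adjusted p = 0.00384) and -0.80 after banding (SE 0.08, adjusted p = 0.000745), and both calls held under every alternative tried for them.

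Eef1a2, the muscle isoform, did not pass the test. It was read at 842 and 796 RPKM in sham TRAP, against 832 and 826 RPKM in sham input. After banding it had 535 and 797 RPKM in band TRAP, against 724 and 684 RPKM in band input. Eef1a2 therefore gave 81.4 and 81.7% of the summed eEF1A RPKM in sham TRAP, against 75.1 and 76.0% in sham input. Eef1e1, a scaffold protein of the tRNA synthetase complex, rose in band TRAP, to 18.5 and 23.0 RPKM, against 11.7 and 11 RPKM in band input (log2 fold change 0.81, SE 0.19, adjusted p = 0.0129), a call lost without the first or the second band input library (adjusted p = 0.0612 and 0.0711). In sham TRAP it was at 23.0 and 15.6 RPKM, against 13.7 and 12.1 RPKM in sham input, with an adjusted p of 0.0605. Eef1b2, Eef1d, Eef1g, Eef2, Eef2k and Eif5a were called in neither comparison.

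In eIF3, Eif3a had the largest called change on the log2(RPKM + 1) scale in both comparisons; with a pseudocount of 0.1, which understates low genes less, Eif2ak2 was farther from 0 after banding, at -1.72 against -1.27 for Eif3a. This subunit, the core on which the complex assembles, was read at 17.2 and 18.2 RPKM in sham TRAP, against 44.5 and 40.1 RPKM in sham input. After banding it was read at 18.8 and 16.5 RPKM in TRAP, against 45.2 and 40.1 RPKM in input. Input libraries were all above TRAP libraries, with log2 fold changes of -1.21 (SE 0.11, adjusted p = 0.000599) and -1.22 (SE 0.11, adjusted p = 0.00043). The changes called for other subunits were smaller. Eif3b fell by 0.38 and 0.41 on the log2 scale after sham surgery and banding, Eif3c and Eif3d fell by 0.41 and 0.28 in the band comparison, Eif3i rose by 0.41 in the sham comparison, and 8 of the 13 were called in neither. The calls of Eif3b and Eif3i after sham surgery and of Eif3d after banding were lost when an input library was left out, with adjusted p between 0.0546 and 0.0965, and those of Eif3b and Eif3c after banding without the first input library (adjusted p = 0.0655 and 0.115). The test of whether banding changed the ratio called none of them (adjusted p = 0.994 for Eif3c and 0.992 for both Eif3d and Eif3i).

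Eif3e was called in neither comparison. It was read at 34.6 and 4.95 RPKM in the band TRAP libraries, against 30.1 and 24.7 RPKM in band input. The sham libraries held 26.2 and 32.6 RPKM in sham TRAP, against 28.5 and 28.3 RPKM in sham input. The band TRAP libraries thus differed from each other by 2.58 on the log2 scale, the widest gap of the 58 genes. Without surgery it was at 5.11 RPKM in CAG TRAP and 19.0 RPKM in CAG input, and at 32.4 RPKM in Tie2 TRAP and 8.87 RPKM in Tie2 input. The left-out pseudogene rows Eif3s6-ps1 and Eif3s6-ps2, which carry the old name of Eif3e, were at 0 and 0.29 RPKM in the same low band TRAP library, against 0.62 and 0.36 RPKM in the other. Eif5, which makes eIF2 hydrolyse its GTP, was low in the same library as well, at 4.11 RPKM against 12.1 RPKM in the other band TRAP library.

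Among cap binding genes, Eif4ebp2 fell in TRAP in both comparisons, and Eif4ebp1 rose in the band comparison. Eif4ebp2 fell in TRAP, to 4.93 and 5.91 RPKM after sham surgery, against 9.53 and 10.5 RPKM in sham input (log2 fold change -0.78, SE 0.12, adjusted p = 0.00302). After banding it was at 5.52 and 5.01 RPKM in TRAP, against 7.53 and 8.69 RPKM in input (-0.54, SE 0.12, adjusted p = 0.0101). Eif4ebp1 rose in band TRAP, to 494 and 467 RPKM, against 341 and 338 RPKM in band input (0.50, SE 0.10, adjusted p = 0.00758). In sham TRAP Eif4ebp1 was at 286 and 341 RPKM, against 254 and 264 RPKM in sham input, with an adjusted p of 0.0702. The cap binder Eif4e3 rose by 0.47 in the band comparison, a call lost without either input library or the first TRAP library (adjusted p between 0.0889 and 0.189). Quantile normalization moved the band value of Eif4ebp1 to 0.26 and ended its call, and without the second band input library Eif4ebp2 lost its band call (adjusted p = 0.0623).

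Eif4a1, an eIF4A helicase gene, fell by 0.46 after sham surgery (adjusted p = 0.0108) and by 0.69 after banding (adjusted p = 0.00228). It was at 18.9 and 16.6 RPKM in sham TRAP, against 24.4 and 25.3 RPKM in sham input. After banding it was at 25.5 and 25.4 RPKM in TRAP, against 44.4 and 38.9 RPKM in input. The sham call was lost without either input library or without the second TRAP library (adjusted p between 0.0613 and 0.0795). Its reads are uncertain, because the left-out row Eif4a-ps4, a pseudogene of the eIF4A genes, held 1.21 to 2.24 times the RPKM of Eif4a1 in every library, and the sources used here do not say how reads shared by such copies were counted. Eif4a-ps4 itself was at 33.8 and 36.7 RPKM in sham TRAP, against 34 and 31.4 RPKM in sham input, and was called in neither comparison (adjusted p = 0.57 and 0.823). The paralogs Eif4a2 and Eif4a3, of which Eif4a3 works in the exon junction complex, were called in neither. Of the scaffold genes, Eif4g3 fell by 0.39 in the sham comparison, a call lost without any 1 of the 4 sham libraries (adjusted p between 0.0801 and 0.092), and Eif4g1 and Eif4g2, which starts translation without eIF4E, were not called.

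Of the genes for start codon choice and subunit joining, Eif2d rose and Eif5b fell in both comparisons. Eif2d, which can place tRNA on the ribosome without eIF2, was at 14.4 RPKM in both sham TRAP libraries, against 9.75 and 10.2 RPKM in sham input (0.49, SE 0.08, adjusted p = 0.00487), and at 13.8 and 15 RPKM in band TRAP, against 9.91 and 9.24 RPKM in band input (0.54, SE 0.08, adjusted p = 0.00288). Eif5b, the GTPase that joins the subunits, was at 26.9 and 26.8 RPKM in sham TRAP, against 38.9 and 37.6 RPKM in sham input (-0.50, adjusted p = 0.00422), and fell by 0.64 after banding. Eif1ad also rose in both, by 0.32 and 0.35, calls that were lost when an input library was left out (adjusted p between 0.0746 and 0.169). Eif2b5, the catalytic subunit of eIF2B, was the member of the eIF2 group with the largest change, at 33 and 31.3 RPKM in sham TRAP, against 19.9 and 19.8 RPKM in sham input (0.67, SE 0.09, adjusted p = 0.00234), and at 24.4 and 28.1 RPKM in band TRAP, against 19.1 and 18.6 RPKM in band input (0.45, SE 0.09, adjusted p = 0.00789). The other eIF2B subunits, Eif2b1 to Eif2b4, were called in neither. Eif2s2 rose by 0.32 in the sham comparison, and Eif1 fell by 0.31 in the band comparison. Both calls were lost when an input library was left out (adjusted p of 0.114 and 0.0863 for Eif2s2, and 0.119 and 0.0505 for Eif1).

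Eif2ak2 (PKR, the kinase activated by double-stranded RNA) fell in TRAP, to 1.01 and 1.35 RPKM after sham surgery, against 2.66 and 2.44 RPKM in sham input (-0.71, SE 0.22, adjusted p = 0.0381), and to 1.27 and 0.46 RPKM after banding, against 3.27 and 2.39 RPKM in band input (-1.06, SE 0.22, adjusted p = 0.00834). The sham call of Eif2ak2 was lost with a pseudocount of 0.1, without a filter, under quantile normalization and with the length trend removed. It was also lost without any 1 of the 4 sham libraries, and the band call without the first input library. Eif2ak1 (HRI, the haem-regulated kinase) was the most abundant of the 4 kinases at a mean of 6.51 RPKM and was called in neither comparison. The release factor genes Etf1 and Gspt1 were called in neither. The Argonaute genes Eif2c1 and Eif2c2 fell in both comparisons, by 0.43 and 0.63 after sham surgery and by 0.43 and 0.48 after banding. Both Eif2c1 calls were lost when an input library was left out (adjusted p between 0.0709 and 0.123).

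**Figure D2:**
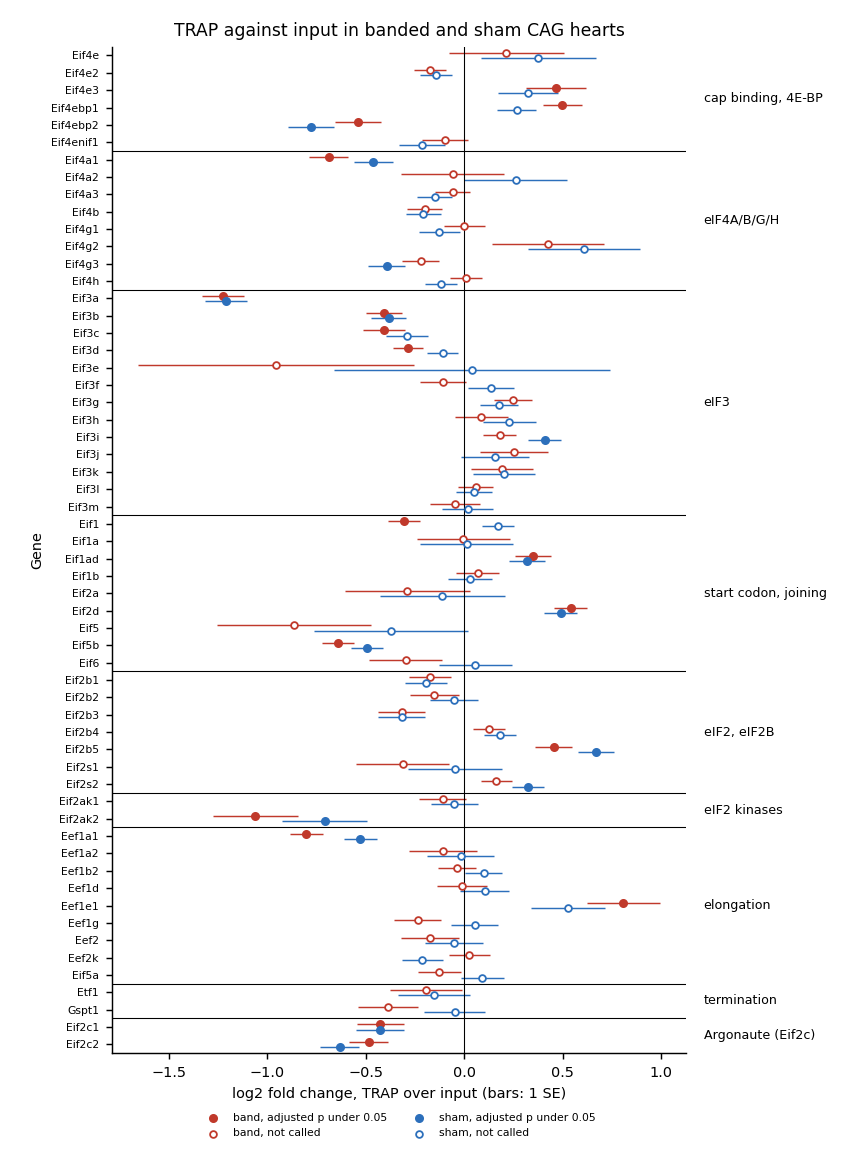
log2 fold change of TRAP over input for the 58 tested genes in banded and sham CAG hearts (2 libraries a group), with bars of 1 standard error. Filled points passed an adjusted p under 0.05; Eif3a lies farthest to the left, at -1.22 after banding and -1.21 after sham surgery, and Eif3e has the widest bars.

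These ratios were set beside transcript length and the markers of cell types. Over the 58 genes the rank correlation of the log2 fold change with transcript length was -0.38 after sham surgery and -0.24 after banding, and over all 11654 genes -0.43 and -0.33. Genes are not independent replicates, and these are descriptions. With the trend over length removed, the changes of Eif5b became -0.04 and -0.22 and lost their calls, and Eif2c1, Eif2c2 and Eif4g3, with transcripts of 7227, 10957 and 8134 bases, lost theirs. Shorter transcripts lost calls too: both calls of Eif3b (2966 bases), the sham call of Eif2ak2 and the band call of Eif4ebp1 (981 bases), at adjusted p between 0.0528 and 0.0934. Eif3a (5176 bases) stayed at -0.90 and -0.94. Of the marker lists, 5 of 5 erythroid, 6 of 8 fibroblast, 5 of 6 smooth muscle and pericyte and 4 of 5 tested macrophage genes were called lower in sham TRAP, with erythroid sums of 204 and 206 RPKM in sham TRAP and 2555 and 2486 RPKM in sham input. Of the 9 cardiomyocyte markers 1 was called higher and 3 lower, and of the 9 endothelial markers 0 and 1. Mitochondrial transcripts gave 0.15 and 0.29% of reads in sham TRAP and 15.3 and 14% in sham input. The part of these marker differences in the results above was not tested. In such bulk samples, fewer cells of a type and less RNA per cell cannot be told apart. Quantile normalization moved the median of all genes by more than 0.1, to 0.05 in both comparisons, and Eif3a, Eef1a1, Eif2d and Eif5b kept their direction under it.

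The next comparison asked how pressure overload changes these genes. In input RNA 1 of the 58 genes, or 1.72%, was called between band and sham, where 4.08% of all genes were called, 2.44% higher and 1.65% lower. In TRAP RNA 4 were called, or 6.90%, where 3.77% of all genes were called, 3 higher (2.21% of all genes) and 1 lower (1.56% of all genes). The medians of the 58 genes were 0.03 in input and -0.02 in TRAP, and those of all genes -0.01 and -0.01. The band against sham comparisons in the 2 fractions use different libraries but the same estimate of spread for each gene.

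Eif4a1 was the gene called in both. It rose to 44.4 and 38.9 RPKM in band input, against 24.4 and 25.3 RPKM in sham input (log2 fold change 0.72, SE 0.10, adjusted p = 0.0148), and to 25.5 and 25.4 RPKM in band TRAP, against 18.9 and 16.6 RPKM in sham TRAP (0.50, SE 0.10, adjusted p = 0.0456). The groups did not overlap in either fraction. The pseudogene row Eif4a-ps4 moved with it, at 53.5 and 49.7 RPKM in band input, against 34 and 31.4 RPKM in sham input (0.64, adjusted p = 0.0467). Eif4a2 had the opposite sign without passing the test, at 31.6 and 31.1 RPKM in band input, against 46.2 and 41.3 RPKM in sham input (adjusted p = 0.398). Eif4a1 gave 41.7 and 39.7% of the summed RPKM of the 3 eIF4A genes in band input, against 25.3 and 27.4% in sham input. With any 1 of the 4 input libraries left out, the input call of Eif4a1 was lost, at log2 fold changes that stayed within 0.63 to 0.81 over all alternatives.

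In TRAP RNA, Eif4ebp1 rose to 494 and 467 RPKM in band TRAP, against 286 and 341 RPKM in sham TRAP (0.62, SE 0.10, adjusted p = 0.0227). In input it was at 341 and 338 RPKM in band, against 254 and 264 RPKM in sham, with an adjusted p of 0.0894. Band libraries were above sham libraries in both fractions. Eef2k, whose product slows elongation, rose to 10.2 and 9.09 RPKM in band TRAP, against 6.31 and 6.42 RPKM in sham TRAP (0.53, SE 0.10, adjusted p = 0.0434), and was at 10.2 and 8.69 RPKM in band input, against 7.38 and 7.68 RPKM in sham input (adjusted p = 0.187). Eif1 fell to 554 and 575 RPKM in band TRAP, against 758 and 813 RPKM in sham TRAP (-0.48, SE 0.08, adjusted p = 0.0271), while it was at 721 and 675 RPKM in band input, against 691 and 704 RPKM in sham input.

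All 4 TRAP calls were lost when either sham TRAP library was left out. Calls became more when a band TRAP library was left out. Both shifts were shared by the translation factor genes and all genes. Each such fit leaves a lone library in a group. Without the first band TRAP library the median was -0.04 for the translation factor genes and -0.043 for all genes. Without the second it was 0.035 and 0.042. With all libraries kept, 3 of 5 erythroid markers were called lower in band TRAP than in sham TRAP, and their part in these results was not tested.

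**Figure D3:**
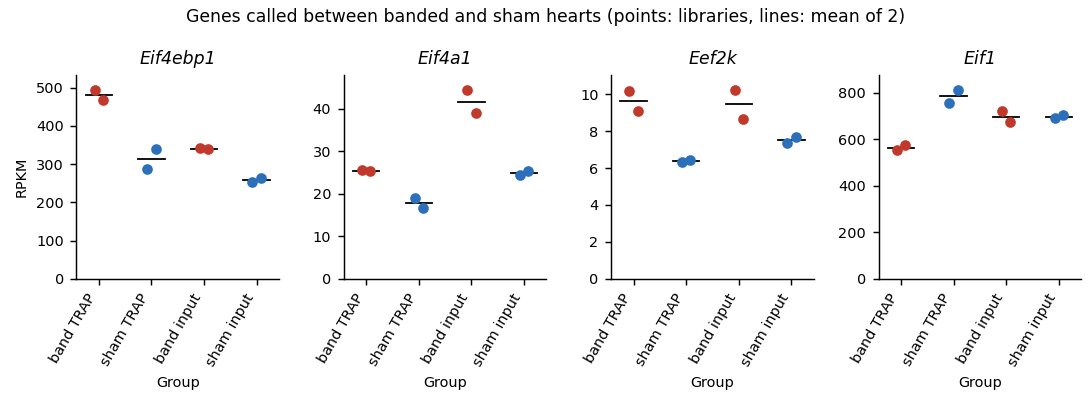
RPKM of Eif4ebp1, Eif4a1, Eef2k and Eif1 in band and sham hearts, in TRAP and input RNA. Points are libraries and lines the mean of the 2 libraries; Eif4a1 and Eif4ebp1 are higher in band than in sham in both fractions, and Eif1 is at 554 and 575 RPKM in band TRAP, below the 758 and 813 RPKM of sham TRAP.

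Whether banding changed the TRAP to input ratio itself was tested as an interaction. None of the 58 genes was called by limma, where 0% of all genes were called, and limma voom on the recovered reads also called 0. At an unadjusted p under 0.05 there was 1 of the 58 genes and 557 of all genes. That gene was Eif1, with a change of -0.48 (SE 0.11, adjusted p = 0.867). The median change was -0.06 for the 58 genes and 0 for all genes.

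In Tie2 hearts the 2 eEF1A genes parted. Eef1a1 was read at 3337 RPKM in Tie2 TRAP and 408 RPKM in Tie2 input, a log2 difference of 3.03, and Eef1a2 at 76.7 RPKM in Tie2 TRAP and 691 RPKM in Tie2 input, a log2 difference of -3.16. Eef1a2 gave 2.25% of the summed eEF1A RPKM in Tie2 TRAP and 62.9% in Tie2 input, and between 68.2 and 81.8% in the 10 CAG libraries. No other of the 58 genes was farther from 0 in this comparison. With 1 library on each side there is no replicate check, and no p-value is given. Tie2 input also differed from the other input libraries, with 3.17% of reads from mitochondrial transcripts, against 13.7 to 15.9%. The part of that difference in the Tie2 values was not tested.

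**Figure D4:**
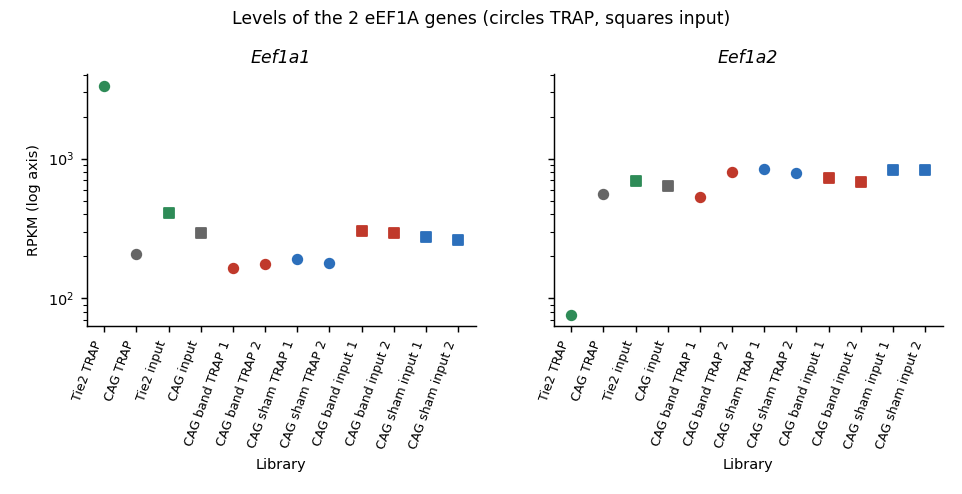
RPKM of Eef1a1 and Eef1a2 in each of the 12 libraries on a log axis; circles are TRAP and squares input. In Tie2 TRAP Eef1a1 stands at 3337 RPKM and Eef1a2 at 76.7 RPKM, while the other 11 libraries all have more Eef1a2 than Eef1a1.

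The stretches before the annotated start of this pair are shown because the genes encode closely related proteins with opposite values in Tie2 TRAP. They are the 250 bases upstream in RefSeq on GRCm38.p6, a later build than that of the files, matched by symbol, at chr9:78481725-78481974 (minus strand) for Eef1a1 and chr2:181157016-181157265 (minus strand) for Eef1a2. Capitals mark the GC box GGGCGG on either strand.
Eef1a1: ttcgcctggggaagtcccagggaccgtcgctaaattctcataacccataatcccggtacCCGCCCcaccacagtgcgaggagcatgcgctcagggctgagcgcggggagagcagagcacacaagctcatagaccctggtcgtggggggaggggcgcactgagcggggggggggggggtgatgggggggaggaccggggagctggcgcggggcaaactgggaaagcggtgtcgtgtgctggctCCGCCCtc
Eef1a2: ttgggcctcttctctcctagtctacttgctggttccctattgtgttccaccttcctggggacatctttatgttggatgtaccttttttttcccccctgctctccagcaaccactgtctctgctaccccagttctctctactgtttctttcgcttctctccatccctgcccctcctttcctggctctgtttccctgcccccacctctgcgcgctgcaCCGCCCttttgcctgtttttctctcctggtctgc
Eef1a1 holds 2 GC boxes and Eef1a2 1, and 32.7% of 32851 promoters hold at least 1 in the same window. Neither holds an E-box (CANNTG), a TATA box (TATAAA) or a CCAAT box (CCAAT), on either strand, which 66.2, 12.4 and 33.8% of promoters hold. These are descriptions of letters in a window and not of binding.

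Against Tie2 input, 16 of the 58 genes in Tie2 TRAP lay past 1 on the log2 scale, 15 higher and 1 lower, or 27.6%, where 44.6% of all genes did, 31.5% higher and 13.1% lower. The median of the 58 genes was 0.51 and that of all genes 0.48, a shift shared by all genes that quantile normalization brought to 0.08 and scaling without the 100 most abundant genes to 0.11. The excess of higher genes went with that shift: 9 genes were past 1 higher and 6 lower under quantile normalization, 6 and 6 under the other scaling, and 5 and 7 with the length trend removed. Of all 11654 genes, 2235 were past 1 higher and 2088 lower under quantile normalization. The other scaling gave 2351 and 2063 of all genes, and removal of the length trend 2191 and 2395. Relative to the median of all genes, Eef1a1 was higher by 2.55 and Eef1a2 lower, at -3.63. Past 1 in the same direction under all 4 alternative settings and as reported were 5 genes higher (Eef1a1, Eef2, Eif3e, Eif3f and Eif2c1) and 1 lower (Eef1a2), and 44 of the 58 kept their sign. Eif3e had 8.87 RPKM in Tie2 input, below the 19.0 to 30.1 RPKM of the other input libraries. Its 32.4 RPKM in Tie2 TRAP lay below the highest sham and band TRAP libraries, at 32.6 and 34.6 RPKM. In the same comparison 9 of 9 cardiomyocyte, 4 of 5 erythroid and 2 of 6 smooth muscle and pericyte markers were past 1 lower. Past 1 higher were 9 of 9 endothelial, 5 of 5 tested macrophage and 3 of 8 fibroblast markers. The part of these markers in the values was not tested.

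Eef2, the translocase, was at 1358 RPKM in Tie2 TRAP and 407 RPKM in Tie2 input (1.74). Eif3f and Eif3h, a pair of eIF3 subunits that bind each other, were at 192 and 371 RPKM in Tie2 TRAP and at 62.0 and 157 RPKM in Tie2 input (1.62 and 1.24). Eif4b, the cofactor of the helicase, was at 79.3 RPKM in Tie2 TRAP and 27.8 RPKM in Tie2 input (1.48). Summed RPKM of the 10 elongation genes was 6120 in Tie2 TRAP and 2400 in Tie2 input, and that of the 13 eIF3 genes 1340 in Tie2 TRAP and 767 in Tie2 input. Eef1a1 and Eef2 held most of the elongation sum in Tie2 TRAP, and the median log2 difference of the 9 tested elongation genes was 0.50, against 0.48 for all genes. Cap binding genes summed to 261 RPKM in Tie2 TRAP and 296 RPKM in Tie2 input, and Eif4ebp1 alone was at 159 RPKM in Tie2 TRAP and 235 RPKM in Tie2 input. Eif4ebp2 was at 28.9 RPKM in Tie2 TRAP and 11.9 RPKM in Tie2 input, and gave 15.4% of 4E-BP RPKM in Tie2 TRAP and 4.82% in Tie2 input. Eif4g2 gave 64.0% and Eif4g1 29.7% of eIF4G RPKM in Tie2 TRAP, and 32 and 61.5% in Tie2 input.

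Of 11 genes whose mRNAs are textbook TOP mRNAs, 8 were past 1 higher (Eef1a1, Eef1b2, Eef1g, Eef2, Eif3e, Eif3f, Eif3h and Eif4b), Eef1a2 was past 1 lower, and Eef1d and Eif3a were at 0.32 and -0.51. Their median was 1.24, against 0.48 for all genes, of which 31.5% were past 1 higher. In counts added after seeing the data, 8 of the 11 were past 1 higher under quantile normalization as well, 5 when scaled without the most abundant genes and 4 with the length trend removed, and 4 (Eef1a1, Eef2, Eif3e and Eif3f) stayed so in these settings and with a pseudocount of 0.1. In sham hearts 0 of the 11 were called higher and 2 lower in TRAP, where 15.1 and 24.5% of all genes were, with a median of 0.04. The list was drawn up from general knowledge with earlier results of these data known. The 30 bases around the annotated start are shown for the 7 of the 11 found in RefSeq, 15 before it and 15 after, since a TOP mRNA begins with a C followed by pyrimidines. Capitals mark the longest run of a C followed by at least 4 further C or T.
Eef1a1: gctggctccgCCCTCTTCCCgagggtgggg
Eef1a2: tCTCTCCTggtctgcgttctcgctcactgg
Eef1b2: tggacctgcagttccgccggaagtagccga
Eef2: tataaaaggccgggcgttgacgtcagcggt
Eif3a: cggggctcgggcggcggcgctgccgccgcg
Eif3f: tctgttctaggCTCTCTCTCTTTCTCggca
Eif4b: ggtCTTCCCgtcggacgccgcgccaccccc
These windows lie at chr9:78481710-78481739 (minus strand), chr2:181157001-181157030 (minus strand), chr1:63176816-63176845 (plus strand), chr10:81176616-81176645 (plus strand), chr19:60790679-60790708 (minus strand), chr7:108934400-108934429 (plus strand) and chr15:102073758-102073787 (plus strand), in that order, on GRCm38.p6. 4 of the 7 hold such a run, with 15 bases in Eif3f and 10 in Eef1a1, and 36.4% of all promoters do. The runs of Eef1a1 and Eif3f begin before the annotated start and run past it, and those of Eef1a2 and Eif4b lie wholly before it. Of the 47 translation factor genes found in RefSeq, 17 hold one. Annotated starts need not be the starts used in the heart.

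Against TRAP of CAG hearts without surgery, 26 of the 58 genes in Tie2 TRAP lay past 1, 25 higher and 1 lower, or 44.8%, where 55.7% of all genes did, 44.4% higher and 11.3% lower. The medians were 0.85 for both the 58 genes and all genes, and quantile normalization brought that of all genes to 0.08. Under it 11 genes were past 1 higher and 8 lower, against 9 and 8 when scaled without the most abundant genes and 6 and 11 with the length trend removed. For all 11654 genes the counts were 2303 and 2274 under quantile normalization. They were 3315 and 1919 when scaled without the most abundant genes, and 2367 and 2552 with the length trend removed. This comparison shares its Tie2 TRAP library with the one above. Eef1a1 was at 3337 RPKM in Tie2 TRAP and 209 RPKM in CAG TRAP (3.99), and Eef1a2 at 76.7 RPKM in Tie2 TRAP and 560 RPKM in CAG TRAP (-2.85). Past 1 as reported and under the same 4 alternatives as above were also Eif3e, Eif4ebp2, Eef2, Eif2c1 and Eif4h, at 2.45, 2.44, 2.17, 2.07 and 1.83 as reported. Eif3e was at 5.11 RPKM in this CAG TRAP library, against 26.2 and 32.6 RPKM in sham TRAP. Tie2 TRAP and CAG TRAP differ in the cells tagged, and 9 of 9 cardiomyocyte markers were past 1 lower in Tie2 TRAP. Past 1 higher were 9 of 9 endothelial, 5 of 5 tested macrophage, 8 of 8 fibroblast, 5 of 5 erythroid and 3 of 6 smooth muscle and pericyte markers. The part of these markers in the result was not tested.

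**Figure D5:**
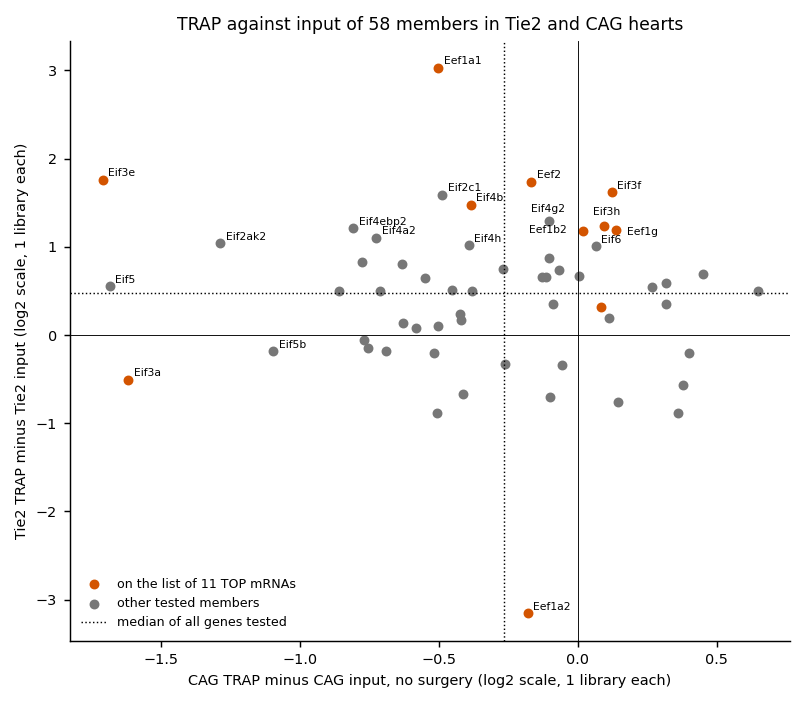
Difference between TRAP and input on the log2 scale for the 58 tested genes, in Tie2 hearts (vertical) and CAG hearts without surgery (horizontal), 1 library each. Orange points are the 11 genes on the TOP list, dotted lines the medians of 11654 genes; Eef1a1 at 3.03 and Eef1a2 at -3.16 lie farthest apart on the vertical axis.

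In CAG hearts without surgery, 5 of the 58 genes lay past 1 between TRAP and input, all lower, or 8.62%, where 8.49% of all genes did, 0.961% higher and 7.53% lower. They were Eif3e at -1.71, Eif5 at -1.68, Eif3a at -1.62, Eif2ak2 at -1.29 and Eif5b at -1.10. Eif3a was at 9.17 RPKM in CAG TRAP and 30.2 RPKM in CAG input, and Eif5 at 2.63 RPKM in CAG TRAP and 10.6 RPKM in CAG input. The Tie2 libraries had 17.5 RPKM of Eif3a in TRAP against 25.4 in input. The median of the 58 genes was -0.33 and that of all genes -0.26, and the rank correlation with transcript length was -0.46 over the 58 genes.

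The 9 genes that did not reach 1 RPKM in 2 libraries were Eif2ak3, Eif2ak4, Eif2c3, Eif2c4, Eif2c5, Eif4e1b, Eif4ebp3, Eif5a2 and Gspt2. The stress kinase genes Eif2ak3 (PERK) and Eif2ak4 (GCN2) reached 4.14 and 1.72 RPKM in Tie2 TRAP, from 723 and 353 reads, against 0.99 and 0.74 RPKM in Tie2 input. In the 8 libraries of operated hearts they averaged 0.60 and 0.30 RPKM. Eif5a2 had 57 reads in Tie2 TRAP and 7 in Tie2 input and gave at most 0.08% of eIF5A RPKM in any of the 12 libraries. Eif4ebp3 and Gspt2 had no read in 2 libraries each. Eif2c5 had no read in any library, which allows up to 3 reads in each by counting error alone.

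Genes that act with these factors were counted from lists. Of 33 other cytosolic translation genes, 4 were called higher and 8 lower in sham TRAP and 7 and 7 in band TRAP. Of all genes 15.1% were called higher and 24.5% lower in sham TRAP, and 16.6 and 26.0% in band TRAP. Pabpc1, the poly(A) binding protein that circularises mRNA, fell by 1.02 in sham TRAP and 1.46 in band TRAP, and Gigyf2, a partner of Eif4e2, by 1.23 and 0.93. Of 12 mTORC1 genes, 2 were called higher and 6 lower in sham TRAP: Rheb, the activator of mTORC1, rose by 0.82, and Mtor fell by 0.84. Mtor and Gigyf2 have transcripts of 8564 and 5724 bases, and their changes with the length trend removed are not given here. Of 11 genes of the eIF2 stress response, 0 were called higher and 3 lower, with Atf5 at -0.60. Of 10 mitochondrial translation factors, 2 were called higher (Ict1 at 0.71 and Tsfm at 0.52) and 0 lower. Between band and sham, Atf3, a stress transcription factor, was the only gene of these 4 lists called, where 4.08% of all genes were in input and 3.77% in TRAP. It rose in input (1.20, adjusted p = 0.00352) and in TRAP (1.29, adjusted p = 0.00246). In Tie2 TRAP against Tie2 input, 7 of the 11 eIF2 stress response genes were past 1 higher and 0 of the 10 mitochondrial factors, 3 of which were past 1 lower, where 31.5% of all genes were past 1 higher and 13.1% lower. The medians were 1.29 and -0.61, against 0.48 for all genes. Under quantile normalization, also added after seeing the data, 3 of the 11 stress genes were past 1 higher, and 6 of the 10 mitochondrial factors past 1 lower. Of all 11654 genes, 2235 were past 1 higher and 2088 lower under it.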

How the data were processed

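RNA of 12 libraries was compared in 8 groups. Per the submitters' processing notes, CASAVA 1.8.2, TopHat 1.4 and HTSeq 0.5.3 were used with build NCBIM37; how the runs of a library were joined is not stated in the sources used here. The values are RPKM per gene, as deposited by the authors in 1 table. They are whole reads divided by length and depth: 233410 of 233410 positive values were whole reads to within 0.02 reads, and intervals and floors cover counting error only.

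From the deposited RPKM, limma 3.58.1 (R 4.3.3) with a mean trend was fitted to log2(RPKM + 1) of the 11654 genes with at least 1 RPKM in at least 2 libraries, all 12 libraries in 1 fit with a mean per group (4 residual degrees of freedom), p-values adjusted over all genes by Benjamini-Hochberg. Fold changes are on that scale, which understates the change of low genes. Groups of 1 library were compared by size only, past 1 on the log2 scale. Replicate numbers did not pair libraries (correlations of their deviations from -0.43 to 0.11), so no block was used.

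Genes named with values are at most the 10 largest changes per comparison among those called or past 1, the 5 highest in level and their family partners; other called genes are named with their fold change, and at most 4 called genes per related list. The members and lists were chosen with earlier results of these data known. Alternatives were another pseudocount (0.1), no filter, a filter at 5 RPKM, quantile normalization, scaling without the 100 most abundant genes, removal of the trend over length, fits on fewer libraries, a replicate block, leaving out each library and limma voom on the recovered reads.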

Additional observations from a re-analysis of the deposited data

Results flagged for a closer look

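5 genes lay lower in TRAP than in input in every setting of CAG hearts (sham, band and without surgery, with no overlap between the fractions) and past 1 higher in Tie2 TRAP against Tie2 input. They are 8.62% of the 58 tested genes, and 11.7% of all 11654 genes met the same condition. The difference between the hearts was not tested, since Tie2 hearts gave 1 library of each fraction. Eef1a1 was higher by 3.03 on the log2 scale in Tie2 TRAP, against -0.50 in CAG hearts without surgery. Eif2c1, an Argonaute gene, was at 1.59, from 5.75 RPKM in Tie2 TRAP and 1.24 RPKM in Tie2 input. Eif4b was at 1.48, Eif4ebp2 at 1.21 and Eif2ak2, from 3.13 RPKM in Tie2 TRAP and 1.01 RPKM in Tie2 input, at 1.04. In CAG hearts without surgery they were at -0.49, -0.39, -0.81 and -1.29. In Tie2 hearts, Eef1a1 and Eif2c1 stayed past 1 with a pseudocount of 0.1, under both other scalings and with the length trend removed, while the lowest of these values was 0.49 for Eif2ak2, 0.69 for Eif4ebp2 and 0.93 for Eif4b.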

How the results depend on the processing

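Removing the trend over transcript length turned the sham values of Eif2c1 and Eif4g3 to 0.005 and 0.083 and the band value of Eif2c2 to 0.064. Fitting only the libraries compared gave 26 genes called between TRAP and input after sham surgery, 8 after banding, and 10 and 0 between band and sham in input and TRAP. Of all genes, these fits called 2587 higher and 3839 lower after sham surgery, and 936 and 1542 after banding. Between band and sham they called 758 higher and 660 lower in input, and 0 in TRAP. Without a filter, 0 were called between band and sham in TRAP. With the replicate block, a paired fit, 1 was called there, against 4 without it; the block gave 15 and 17 calls between TRAP and input, 1 between band and sham in input and 0 for the change in ratio. Crossing the numbers in sham TRAP, chosen after seeing the data, gave 17 calls after sham surgery and 3 between band and sham in TRAP. Leaving out 1 library gave 7 to 10 calls after sham surgery, 9 to 30 after banding, 0 between band and sham in input, 0 to 14 in TRAP, and 0 to 2 for the change in ratio, the 2 without the first band TRAP library. Of genes past 1, CAG hearts without surgery had 3 under quantile normalization and with the length trend removed, and Tie2 TRAP against CAG TRAP 17 with the length trend removed (6 higher, 11 lower) and 17 when scaled without the most abundant genes (9 higher, 8 lower), against 25 higher and 1 lower as reported. The causes were not tested.

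Limits are the 2 libraries a group, the single Tie2 libraries, the wide gap between the band TRAP libraries, and pseudogene copies of Eif4a1 and Eif3e in the table. A lone library left in a group is assumed to vary like the others.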
